A study of Mus musculus with 17 samples.

Results

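The 10 genes described here are Gfap, Vim, Serpina3n, Lcn2 and Osmr, which are known for rising when astrocytes become reactive, and Aqp4, Aldh1l1, Slc1a2, Slc1a3 and Gja1, which serve the resting functions of astrocytes. They were taken by symbol, by a rule that uses no measured value but was set with earlier results of these data known, and all 10 were found among the 20328 genes of the RNA-seq table and among the 26650 genes of the scRNA-seq table. The H3K27ac CUT&RUN table listed 4 of its 11424 regions at 2 of them, and the ATAC-seq table listed 5 of its 3582 regions at 3 of them. All mice were wild-type female ICR, and the labels give the tissue as brain. The 6-OHDA-induced PD model is a mouse in which 6-hydroxydopamine, a toxin taken up by dopaminergic neurons, was injected on one side into the substantia nigra at 8 weeks of age, at 10 µg/µl. The NDST3-treated PD model received the same lesion and, 5 days later, 2 µl of an AAV9 vector in which the broadly active CMV promoter drives the human NDST3 sequence. Healthy controls were labelled sham. A lesioned group given a control vector was not analysed here, so NDST3 and the vector that carried it cannot be told apart. RNA-seq had 2 sham libraries, 1 library of the 6-OHDA-induced PD model and 2 of the NDST3-treated PD model. CUT&RUN had 2 libraries per group, and ATAC-seq and scRNA-seq had 1 each.

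Astrocytes take up glutamate and potassium at synapses, exchange water at their endfeet on blood vessels, and share ions and metabolites through gap junctions. After injury they become reactive, a state in which intermediate filament proteins, acute phase proteins and receptors for cytokines of the interleukin-6 family are made in larger amounts. Loss of dopaminergic neurons after 6-OHDA is a known setting of this reaction. Several genes that are widely used as reactivity markers are also made by endothelial, mural and immune cells, so their level in whole tissue is not a level in astrocytes alone.

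Total counts per RNA-seq library lay between 51003699 and 70533326, and TMM scaling factors between 0.979 and 1.02. The labels do not say whether libraries of a group came from separate mice, so tests measure the spread between libraries, which may be technical. The single 6-OHDA library had no replicate and was assumed to vary like the others. Replicate 2 of the NDST3-treated PD model stood apart in markers of choroid plexus, whose summed level was 1160 CPM (counts scaled to a common library total) there against 24.1 to 68.2 CPM in the other 4 libraries. Without this library, the 10 genes kept the direction of their log2 fold changes in the lesion against sham, from -0.67 for Slc1a2 to 5.29 for Lcn2. For NDST3 against the 6-OHDA library, the values then ran from -2.79 for Lcn2 to 0.66 for Slc1a2. That fit leaves 1 library of the NDST3-treated PD model, so only effect sizes are given. The mouse gene Ndst3, which does not report the human sequence, had 14.1 and 21.0 CPM in sham, 7.96 CPM in the 6-OHDA library and 23.3 and 13.5 CPM with NDST3.

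The sequence before the start of a gene holds part of what transcription factors bind, and RefSeq promoters (GRCm38.p6, 250 bases before to 50 bases after the start) were matched for 9 of the 10 genes. Those of Vim, Serpina3n and Lcn2 are shown because these genes are at the centre of the results, and the first 2 also carried the listed H3K27ac regions; Gfap is shown only around its start. Capitals mark the NF-kB motif of 10 bases (any base at its positions 4 and 5) in Vim and Serpina3n, the TATA motif TATAAA in Vim, the C/EBP motif TTGCNNAA in Lcn2 and the STAT motif TTCNNNGAA in Gfap, each searched on both strands, where N is any base. The Vim stretch is chr2:13574061-13574310 on the plus strand, that of Serpina3n is chr12:104406458-104406707 on the plus strand (before a RefSeq transcript start that lies inside the gene's bounds, so the last 62 bases are within them), that of Lcn2 is chr2:32387740-32387989 on the minus strand and that of Gfap is chr11:102897186-102897215 on the minus strand.
Vim: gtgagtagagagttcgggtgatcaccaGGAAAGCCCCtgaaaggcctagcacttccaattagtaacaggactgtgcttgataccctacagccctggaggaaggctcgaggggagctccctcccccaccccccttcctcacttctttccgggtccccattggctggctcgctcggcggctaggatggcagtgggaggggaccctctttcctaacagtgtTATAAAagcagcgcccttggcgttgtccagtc
Serpina3n: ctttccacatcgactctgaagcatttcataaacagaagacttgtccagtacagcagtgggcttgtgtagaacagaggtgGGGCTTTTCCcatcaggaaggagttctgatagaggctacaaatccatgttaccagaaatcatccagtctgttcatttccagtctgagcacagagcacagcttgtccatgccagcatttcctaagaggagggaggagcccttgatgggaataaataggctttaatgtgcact
Lcn2: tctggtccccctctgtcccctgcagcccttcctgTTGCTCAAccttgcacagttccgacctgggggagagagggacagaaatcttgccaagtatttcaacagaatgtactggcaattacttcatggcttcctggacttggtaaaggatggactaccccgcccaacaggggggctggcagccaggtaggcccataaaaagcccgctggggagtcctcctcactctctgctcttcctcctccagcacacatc
Gfap: tcaatgggggtgcTTCCAGGAAgtcagggg
The NF-kB motif was in 2 of the 9 promoters and in 1.63% of all 32851 promoters of the same length. STAT was in 2 of 9 (Gfap and Slc1a3) and in 8.30% of all promoters, AP-1 (TGANTCA) in 2 of 9 (Gja1 and Osmr) and in 7.81%, C/EBP in 3 of 9 (Lcn2, Slc1a2 and Aldh1l1) and in 10.8%, TATA in 2 of 9 (Vim and Slc1a3) and in 13.6%, and the full NFI motif in none of the 9 and in 0.0365%. A match is a description of letters and not of binding.

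Per transcript length, the order of the genes was different in the lesioned library. In sham, Gfap was the most abundant of the 10 with 1105 and 507 TPM (counts scaled by transcript length and library), followed by Slc1a2 with 460 and 465 TPM, Gja1 with 294 and 288 TPM, Aqp4 with 253 and 153 TPM and Slc1a3 with 210 and 208 TPM. Then came Serpina3n (165 and 102 TPM), Vim (172 and 70.7 TPM), Aldh1l1 (72.1 and 66.3 TPM) and Lcn2 (59.9 and 24.8 TPM). The neighbours Aqp4 and Slc1a3, Serpina3n and Vim, and Vim and Aldh1l1 overlapped in these 2 libraries, and the other neighbours did not. Osmr was lowest at 4.46 and 1.95 TPM. In the 6-OHDA library Gfap stood at 4835 TPM, the 19th most abundant of all 20328 genes, then Vim at 1436 TPM and Lcn2 at 1430 TPM, which ranked 55 and 56. Slc1a2 stood at 249 TPM there, below Slc1a3 at 267 TPM. Within a library, Slc1a2 was 2.19 and 2.23 times Slc1a3 in sham, 0.934 times in the 6-OHDA library, and 2.101 and 1.37 times with NDST3. Gfap was 15.3 and 7.65 times Aldh1l1 in sham, 65.2 times in the 6-OHDA library, and 28.9 and 47.7 times with NDST3. The 2 libraries of a group thus differed from each other by up to a factor of about 2 in these ratios, and the 6-OHDA library lay beyond all 4 others in both.

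The first comparison asks what the lesion changed. All 5 reactivity genes rose in the 6-OHDA-induced PD model, between 6.52-fold for Serpina3n and 38.9-fold for Lcn2, while the 5 function genes ranged from a rise of 4.71-fold for Aqp4 to no call for Aldh1l1 and Slc1a2. Of the 10 genes, 8 passed an adjusted p of 0.05 and all 8 were higher, against 18.8% of all 19300 tested genes called higher, 17.1% called lower and 35.8% in either direction. The 6-OHDA library lay above both sham libraries in 9 of the 10 genes and in 45.3% of all tested genes, and below both in 1 and in 44.3%. The median log2 fold change was 2.47 over the 10 genes and -0.002 over all genes tested. In whole tissue, more astrocytes, more RNA of these genes per astrocyte and more of their RNA from other cell types cannot be told apart.

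Gfap (NCBI Gene 14580, chromosome 11 of GRCm38, 102887336 to 102897200), the intermediate filament protein that defines astrocytes in histology, had 1246 and 572 CPM in sham, 6237 CPM in the 6-OHDA library and 2136 and 3052 CPM with NDST3. The lesioned library was highest, both NDST3 libraries lay between it and sham, and no groups overlapped. Against sham (909 ± 477 CPM, SD, n = 2), Gfap rose by 2.78 on the log2 scale (SE 0.48, adjusted p = 0.0144, edgeR quasi-likelihood test with Benjamini-Hochberg adjustment over all tested genes, as for every adjusted p of this kind here).

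Vim (NCBI Gene 22352, chromosome 2, 13574311 to 13582826) encodes vimentin, the filament partner of GFAP in reactive astrocytes. It had 129 and 53.1 CPM in sham, 1236 CPM in the 6-OHDA library and 206 and 404 CPM with NDST3. Again the libraries fell into 3 groups without overlap, but the pairs differed 2.43-fold within sham and 1.96-fold with NDST3. Vim rose by 3.76 (SE 0.62, adjusted p = 0.0126) against sham.

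Serpina3n (NCBI Gene 20716, chromosome 12, 104406646 to 104414334) encodes a secreted protease inhibitor of the acute phase. Its level was 141 and 87.2 CPM in sham, 744 CPM in the 6-OHDA library and 310 and 497 CPM with NDST3. The NDST3 libraries were closer to the lesioned library for this gene than for any other of the reactivity genes, with a group mean 0.542 times the 6-OHDA value. Serpina3n rose by 2.70 (SE 0.38, adjusted p = 0.00967) against sham.

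Lcn2 (NCBI Gene 16819, chromosome 2, 32384637 to 32387739) encodes lipocalin-2, a secreted protein that binds bacterial iron carriers and is made by reactive astrocytes and neutrophils. It had 20.9 and 8.66 CPM in sham, 572 CPM in the 6-OHDA library and 84.7 and 250 CPM with NDST3. The ratio of the highest to the lowest library was the largest of the 10 genes, and the NDST3 pair differed 2.96-fold. Lcn2 rose by 5.28 (SE 0.80, adjusted p = 0.0107) against sham.

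Osmr (NCBI Gene 18414, chromosome 15, 6813568 to 6874968) encodes the receptor subunit for oncostatin M, which signals with gp130 through STAT3. It had 8.83 and 4.01 CPM in sham, 52.4 CPM in the 6-OHDA library and 17.4 and 20.2 CPM with NDST3, where the pair was closest among the reactivity genes. Osmr rose by 3.03 (SE 0.44, adjusted p = 0.0102).

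**Figure D1:**
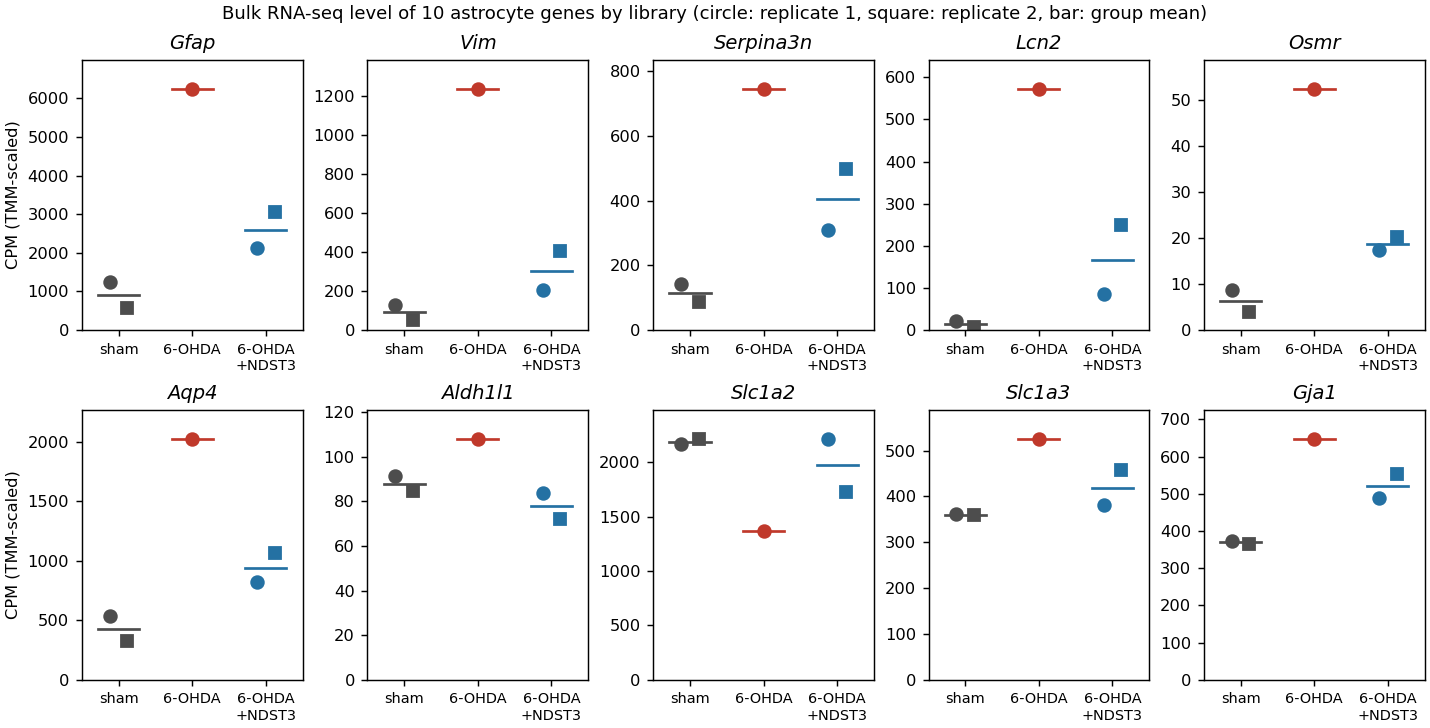
CPM after TMM scaling (y axis, from 0) of each of the 10 genes in the 5 RNA-seq libraries; circles are replicate 1, squares replicate 2, and bars group means (1 library for 6-OHDA). In 9 panels the 6-OHDA library is highest, and in the panel of Slc1a2 it is lowest at 1369 CPM.

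Among the function genes, Aqp4 (NCBI Gene 11829), the water channel of astrocyte endfeet, went with the reactivity genes. It had 535 and 325 CPM in sham, 2026 CPM in the 6-OHDA library and 819 and 1067 CPM with NDST3, with no overlap between groups. It rose by 2.24 (SE 0.33, adjusted p = 0.0103) against sham. Gja1 (NCBI Gene 14609, chromosome 10, 56377300 to 56390419), the gap junction protein connexin 43, had 373 and 366 CPM in sham, 648 CPM in the 6-OHDA library and 489 and 553 CPM with NDST3. The sham pair was within 1.02-fold, and Gja1 rose by 0.81 (SE 0.13, adjusted p = 0.0121).

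The glutamate transporters stood on opposite sides of sham. Slc1a3 (GLAST; NCBI Gene 20512, chromosome 15, 8634124 to 8710807) had 362 and 359 CPM in sham, 526 CPM in the 6-OHDA library and 381 and 457 CPM with NDST3. It rose by 0.55 (SE 0.15, adjusted p = 0.044) against sham. Slc1a2 (GLT-1; NCBI Gene 20511, chromosome 2, 102658239 to 102790784), which carries most glutamate uptake in the adult forebrain, had 2168 and 2211 CPM in sham, 1369 CPM in the 6-OHDA library and 2217 and 1727 CPM with NDST3. The lesioned library was the lowest of the 5, and NDST3 replicate 1 was above both sham libraries. Its log2 fold change against sham was -0.68 (SE 0.21, adjusted p = 0.0612), short of the threshold, which it passed with unscaled library sizes (adjusted p = 0.0486), with DESeq2 (adjusted p = 0.00212) and in 5 further alternatives.

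Aldh1l1 (NCBI Gene 107747, chromosome 6, 90550768 to 90599171), a folate enzyme used as a marker of astrocytes in general, had the smallest difference. It had 91.5 and 84.5 CPM in sham, 108 CPM in the 6-OHDA library and 84.0 and 72.1 CPM with NDST3. The lesioned library was above both sham libraries. Both NDST3 libraries were below both sham libraries, replicate 1 only just (84.0 against 84.5 CPM in sham replicate 2). The log2 fold change of lesion against sham was 0.30 (SE 0.13, adjusted p = 0.141).

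In 8 of the 10 genes the 5 libraries stood in the same order, from sham replicate 2 through sham replicate 1, NDST3 replicate 1 and NDST3 replicate 2 to the 6-OHDA library. The exceptions were Aldh1l1 and Slc1a2. This order was found in 11.3% of all tested genes, and both NDST3 libraries lay between sham and the 6-OHDA library in the same 8 genes and in 34.7% of all tested genes. Markers of macrophages had this order too, with summed levels of 41.6, 201, 636, 1088 and 2885 CPM, as had markers of microglia with 298, 391, 807, 1330 and 2324 CPM. The 4 of 7 neutrophil markers that were tested had 10.9, 14.2, 37.8, 67.2 and 108 CPM in that order, and the lowest single values were 0.487 CPM for Pf4 of macrophages, 3.72 CPM for Fcrls of microglia and 0.188 CPM for Cxcr2 of neutrophils. Most of the macrophage sum was Lyz2, with 23.7, 167.6, 619.5, 1059 and 2804 CPM in that order. Most of the neutrophil sum was Csf3r, with 7.01, 10.6, 33.7, 62.0 and 99.3 CPM. The order of these sums was thus largely that of single genes. Of the 7 neutrophil markers, 1 was also above 0.1 in the microglia-like cluster 6 of scRNA-seq, described below. The neutrophil sum may therefore hold RNA of other cells. Only 3 of the 7 macrophage markers had a positive log2 fold change with NDST3 against sham. Marker levels of vessel and connective tissue cells differed as well. Markers of fibroblasts summed to 395 and 237 CPM in sham, 1346 CPM in the 6-OHDA library and 215 and 285 CPM with NDST3, and all 6 were called higher after the lesion and lower with NDST3. Mural markers summed to 262 and 212 CPM in sham, 514.5 CPM in the 6-OHDA library and 155 and 180 CPM with NDST3 (3 of 7 called higher after the lesion, 4 lower with NDST3). Endothelial markers summed to 322 and 278 CPM, 427 CPM, and 253 and 286 CPM (4 of 8 higher, 4 lower), and the lowest single values of these lists were 4.72 CPM for Lum, 3.41 CPM for Kcnj8 and 16.0 CPM for Cdh5. The part of these cells in the levels of the 10 genes was not tested. Astrocyte markers outside the 10 genes (Sox9, S100b, Ndrg2 and 7 others) summed to 5246 and 4861 CPM in sham, 4670 CPM in the 6-OHDA library and 5123 and 4382 CPM with NDST3, so the lesioned library was within the range of the others there (0.924 times the sham mean). Single markers differed from this sum, since Sox9 was called higher after the lesion (1.58) and Aldoc, an abundant glycolytic enzyme, lower (-0.78, adjusted p = 0.0398), and the other 8 were not called. The lowest single value of these markers was 29.2 CPM, for Sox9.

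All 8 calls were lost with either sham library left out, and that of Slc1a3 also with limma (adjusted p = 0.0555 and 0.0522 with the 2 pseudocounts). Without sham replicate 1, or without sham replicate 2, edgeR called no gene of the whole table, and the log2 fold changes of the 8 called genes kept their sign, between 0.54 for Slc1a3 and 6.04 for Lcn2. Each remaining sham library then has no partner and is assumed to vary like the NDST3 pair.

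The second comparison asks what differed with NDST3 after the lesion, and it shares the 6-OHDA library with the first. Levels were lower with NDST3 in 9 of the 10 genes and higher in Slc1a2, and none of these differences passed an adjusted p of 0.05, against 15.6% of all tested genes called in either direction (9.06% higher and 6.59% lower). Unadjusted, 5 of the 10 had p under 0.05, against 37.9% of all tested genes. Groups did not overlap in all 10 genes, as in 43.2% of tested genes with lower and 42.4% with higher NDST3 libraries, so with 1 library on one side such a separation is common. By the study's own threshold, at least 2-fold with an unadjusted p under 0.05, 4 genes were lower (Gfap, Vim, Osmr and Aqp4), against 8.37% of all tested genes lower and 7.3% higher by this threshold.

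The largest difference among the reactivity genes was that of Vim, with a log2 fold change of -2.02 (SE 0.60, adjusted p = 0.0788) between the NDST3-treated and the 6-OHDA-induced PD model. Lcn2 had -1.77 (SE 0.74, adjusted p = 0.15), Osmr -1.48 (SE 0.43, adjusted p = 0.0761), Gfap -1.27 (SE 0.48, adjusted p = 0.129) and Serpina3n -0.88 (SE 0.38, adjusted p = 0.161). The standard error was largest for Lcn2, whose NDST3 pair differed most. Of the function genes, Aqp4 had -1.10 (SE 0.33, adjusted p = 0.0793), Aldh1l1 -0.47 (SE 0.13, adjusted p = 0.0699), Slc1a3 -0.33 (SE 0.15, adjusted p = 0.179), Gja1 -0.32 (SE 0.13, adjusted p = 0.153) and Slc1a2 0.53 (SE 0.21, adjusted p = 0.137). DESeq2 called 5 of these (Serpina3n, Osmr, Aqp4 and Aldh1l1 lower, Slc1a2 higher), against 29.8% of the 17429 genes to which it gave an adjusted p. Calls of these genes with NDST3 therefore depended on the test and its settings.

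The third comparison sets the NDST3-treated PD model against sham, with 2 libraries on each side, and shares libraries with both others. Levels in both NDST3 libraries lay above both sham libraries in 8 genes, as in 26.5% of all tested genes, and below both in 1 (Aldh1l1), as in 22.4%. No tested gene passed an adjusted p of 0.05 (0.0%), and 2744 genes, 7 of the 10 among them, had an unadjusted p under 0.05, which is 14.2% of the tested genes. DESeq2 called 1023 genes, 6.0% of those to which it gave an adjusted p, and 5 of the 10 (Serpina3n, Lcn2, Osmr, Aqp4 and Gja1), all higher. By the study's threshold 6 of the 10 were higher (all 5 reactivity genes and Aqp4), against 4.78% of all tested genes higher and 1.08% lower. The log2 fold changes were 3.51 for Lcn2 (SE 0.70, adjusted p = 0.168), 1.82 for Serpina3n (SE 0.33, adjusted p = 0.162), 1.75 for Vim, 1.55 for Osmr, 1.51 for Gfap and 1.13 for Aqp4. Those of Gja1 (0.50), Slc1a3 (0.22), Slc1a2 (-0.15) and Aldh1l1 (-0.17) were smaller, with adjusted p from 0.186 to 0.713.

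**Figure D2:**
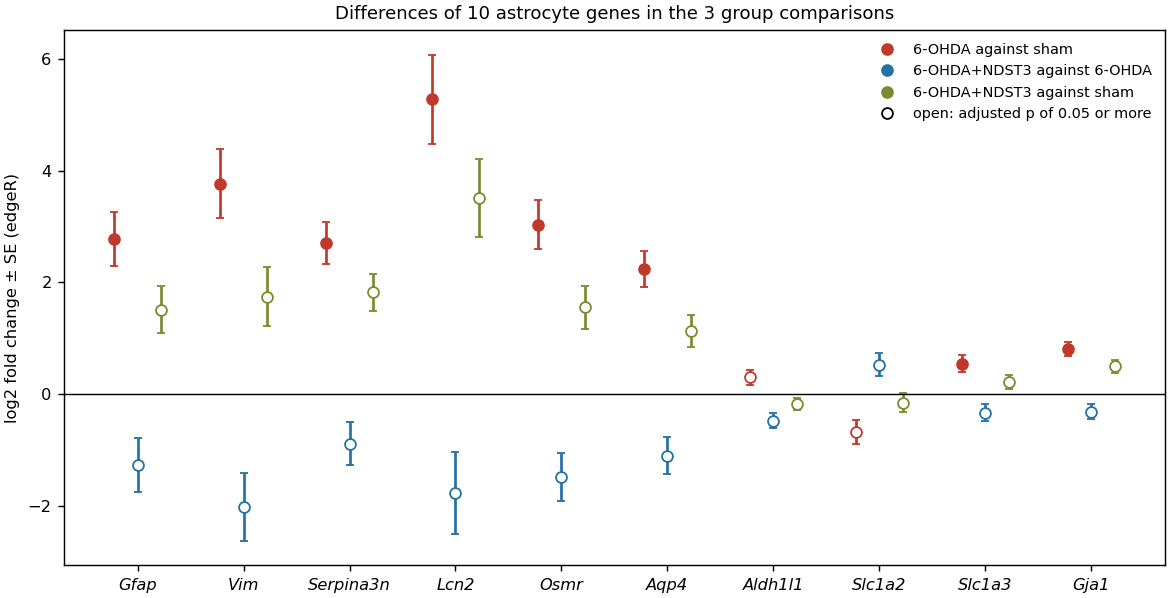
Log2 fold change with its standard error (y axis) of each of the 10 genes (x axis) in the 3 comparisons, which share libraries; filled points passed an adjusted p of 0.05 in edgeR. The 8 filled points all belong to the lesion against sham, from 0.55 for Slc1a3 to 5.28 for Lcn2, and the points for NDST3 against 6-OHDA are all open.

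Beyond the 10 genes, wider lists of the same functions were read from the same fit, where 18.8% of all tested genes were called higher and 17.1% lower after the lesion, and 9.06% higher and 6.59% lower with NDST3 than in the 6-OHDA library. Of 38 further genes of reactive astrocytes, 34 rose and 1 fell in the 6-OHDA-induced PD model, with a median log2 fold change of 2.40. The largest rises were those of Lgals3, a galectin also made by phagocytes (5.29, adjusted p = 0.0123), Steap4, a metalloreductase (5.16, adjusted p = 0.0112), Tgm1, a transglutaminase (4.96, adjusted p = 0.00823), and the complement component C3 (4.92, adjusted p = 0.0255). Amigo2, a neuronal and astrocytic adhesion molecule, fell by 1.51 (adjusted p = 0.00823). With NDST3, 10 of the 38 were lower than in the 6-OHDA library and 1 was higher, with a median of -1.63. Among the 10 were Thbs1, a thrombospondin (-2.27, adjusted p = 0.0384), Emp1 (-2.23, adjusted p = 0.0432), Ccn1, a matrix-associated growth regulator (-2.09, adjusted p = 0.0378), and Nes, the filament protein nestin (-1.99, adjusted p = 0.032). Amigo2 was the one that was higher (1.55, adjusted p = 0.032).

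Of 32 further genes of resting astrocyte function, 8 rose (25%), 6 fell (18.8%) and 18 did not pass, with a median log2 fold change of 0.18, which are shares near those of all tested genes. Sox9, a transcription factor of the astrocyte lineage, rose from 29.7 and 29.2 CPM to 87.9 CPM (1.58, adjusted p = 0.00852), and Fabp7, a fatty acid binding protein of immature astrocytes, from 61.1 and 42.2 CPM to 143 CPM (1.47, adjusted p = 0.0106). Slc6a11, the astrocytic GABA transporter GAT-3, fell from 1074 and 1224 CPM to 463 CPM (log2 fold change -1.31, adjusted p = 0.0113), and Etnppl, an enzyme of phosphoethanolamine breakdown, from 36.8 and 58.4 CPM to 16.7 CPM (-1.51, adjusted p = 0.0202). With NDST3, Slc6a11 was at 1140 and 920 CPM (log2 fold change against the 6-OHDA library 1.15, adjusted p = 0.0361) and Etnppl at 55.9 and 51.3 CPM (1.69, adjusted p = 0.0375). Sox9 (39.7 and 53.8 CPM; -0.91, adjusted p = 0.0434) and Fabp7 (53.1 and 55.7 CPM; -1.40, adjusted p = 0.0344) were lower than in the 6-OHDA library. In all, 4 of the 32 (12.5%) were called higher and 2 (6.25%) lower in this comparison, again near the shares of all tested genes.

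Osmr acts in a pathway of interleukin-6 family ligands, the shared receptor gp130 (Il6st), JAK kinases and STAT3. Of its 18 listed genes 17 were tested, and 12 rose and none fell in the 6-OHDA-induced PD model. Among the ligands, Cntf rose from 1.44 and 0.999 CPM to 32.2 CPM (4.73, adjusted p = 0.00823). Of the receptors, Il6ra rose by 1.95 (adjusted p = 0.0129), and of the feedback inhibitors Socs3 rose by 3.08 (adjusted p = 0.0186). With NDST3, 5 of the 17 were lower than in the 6-OHDA library and none was called higher, among the lower ones Cntf at 4.27 and 8.39 CPM (-2.35, adjusted p = 0.0372), Clcf1, which is also in the reactive astrocyte list (-1.81, adjusted p = 0.0433), Stat3 (-0.77, adjusted p = 0.0423) and the kinase gene Tyk2 (-0.76, adjusted p = 0.0401).

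Around Aqp4, 10 genes of the complex that anchors it and its endfoot partners were tested, of which 4 rose and 1 fell after the lesion. Mlc1, a membrane protein of endfeet, rose by 0.94 (adjusted p = 0.00922), Dag1 (dystroglycan) by 0.87 (adjusted p = 0.0115) and Agrn (agrin) by 0.52 (adjusted p = 0.0446), and Dtna (dystrobrevin) fell by 0.48 (adjusted p = 0.0475). The rise of Aqp4 by 2.24 was larger than any of these, and none of the 10 was called with NDST3 against 6-OHDA. Around Slc1a2 and Slc1a3, 14 genes of glutamate handling were tested, of which 2 rose (14.3%) and 4 fell (28.6%) after the lesion, not far from the shares of all tested genes. The vesicular transporter gene of glutamatergic neurons, Slc17a6, fell by 1.73 (adjusted p = 0.0119) and the aminotransferase gene Got1 by 1.28 (adjusted p = 0.00847), while the glutamine transporter gene Slc38a5 rose by 1.78 (adjusted p = 0.0128). Markers of neurons summed to 7152 and 7853 CPM in sham, 2602 CPM in the 6-OHDA library and 6229 and 5392 CPM with NDST3, all 10 of them fell, and their part in these values was not tested; the lowest of them was Rbfox3 at 38.5 CPM. Over all 105 tested genes of these 5 lists, 57 rose and 12 fell after the lesion, and 7 were higher and 17 lower with NDST3 than in the 6-OHDA library. These calls did not hold without either sham library, nor in the second comparison without NDST3 replicate 1. Each such fit leaves 1 library in a group, and calls were lost for nearly all tested genes too. The loss is therefore not particular to the 105.

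**Figure D3:**
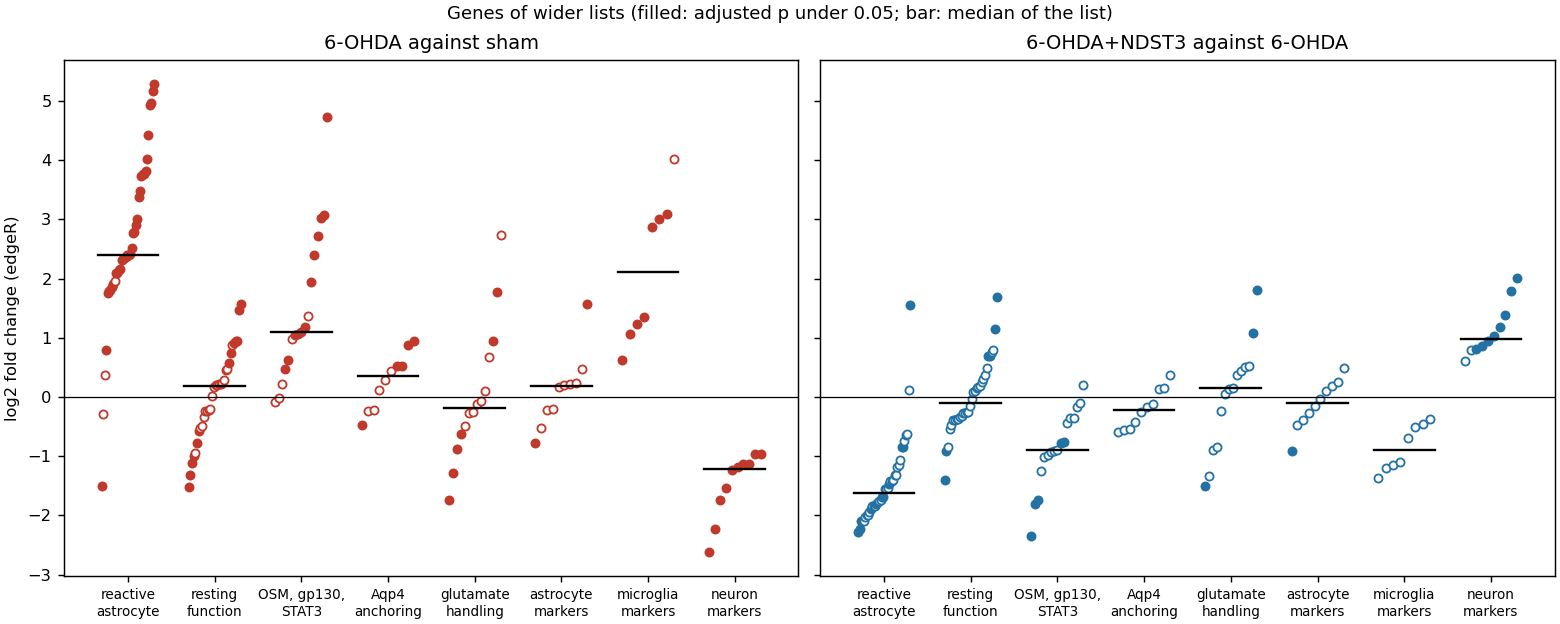
Log2 fold changes (y axis) of the genes of 5 wider lists and of 3 marker lists, for the lesion against sham and for NDST3 against 6-OHDA; each point is a gene, filled where adjusted p was under 0.05 in edgeR, and bars are medians. The reactive astrocyte list has medians of 2.40 and -1.63, and the astrocyte marker list 0.18 and -0.10.

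In scRNA-seq, the deposited table gives for each gene the mean over the cells of a cluster, on the scale of ln(1 + count per 10000), in 9 clusters of the 6-OHDA and of the NDST3 library. Sham was not in it, and there was 1 library per group, so no test was made. The number of cells behind each mean is not in that table and was not used here, so no precision is given. The study named cluster 2 astrocytes, using Slc1a2, Slc1a3, Gfap, Aldh1l1 and Sox2, and also S100b and Ndrg2. A high level of these there is therefore no finding. By the markers used here, cluster 2 held all 10 of the other astrocyte markers above 0.1, but S100b and Ndrg2 of these had served to name it. It also held 6 of 6 ependymal, 6 of 7 choroid plexus and 7 of 7 oligodendrocyte markers, and Mt3, Npas3, Mia, Cfap299 and Clu led it. It is therefore called by its number. Of the 8 members above 0.1 in some cluster as the mean of both libraries, 4 (Aqp4, Gja1, Aldh1l1 and Slc1a2) were highest in cluster 2, against 31.3% of the 11758 genes above 0.1 in this way. Aldh1l1 and Slc1a2 of these had served to name the cluster. Gfap and Serpina3n were highest there too, at lower means.

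Gja1 (0.844 in the 6-OHDA and 0.862 in the NDST3 library), Aqp4 (0.701 and 0.688), Slc1a3 (0.608 and 0.588) and Slc1a2 (0.509 and 0.627) had the clearest means in cluster 2 among genes that mark astrocytes. Aldh1l1 (0.0763 and 0.169) and Gfap (0.0725 and 0.127) were far lower there, and Serpina3n was at 0.0331 and 0.0307. By rank among all genes of cluster 2, Gfap stood at 10452 in the 6-OHDA library and 8270 in the NDST3 library, while in bulk RNA of the 6-OHDA library it had stood at 19 by TPM. These ranks are of unlike measures. The first are of log values averaged over the cells of 1 cluster, and the other is of whole tissue over 20328 genes. Aqp4 stood at 1006 and 1028 in cluster 2. The scRNA-seq cells came from dissociated and Percoll-cleared tissue, and bulk RNA did not; the part of this in the ranks was not tested.

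Slc1a3 was not particular to cluster 2, with means of 0.537 and 0.708 in cluster 6, a microglia-like cluster led by P2ry12 and Tmem119, and of 0.235 and 0.399 in cluster 3, led by Gpnmb and Apoc1. Gja1 was also above 0.1 in the endothelial-like cluster 7 (0.238 and 0.285). Of the reactivity genes, Vim was highest in the mural-like cluster 5, led by Tagln and Acta2 (2.72 and 2.65), then in the endothelial-like cluster 7, led by Cldn5 (2.09 and 2.13), with cluster 2 at 1.55 and 1.44. Osmr was also highest in cluster 5 (0.722 and 0.837) and cluster 7 (0.499 and 0.577), with cluster 2 at only 0.0440 and 0.0575. Lcn2 was highest in the neutrophil-like cluster 1, led by S100a9 and Trem1 (0.277 and 0.394), and cluster 7 (0.103 and 0.147), while cluster 2 had 0.0314 and 0.00896. The study removed cells with very many detected genes as likely multiplets, and remaining doublets could not be looked for in cluster means. These levels are means over the cells assigned to each cluster, and they do not give each cell type's share of the bulk signal.

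Differences between the libraries in cluster 2, NDST3 minus 6-OHDA on the log2 scale of the deposited means, ran from -0.16 for Vim to 0.17 for Slc1a2, with 0.13 for Aldh1l1, 0.08 for Gfap, 0.03 for Gja1, -0.02 for Aqp4 and -0.03 for both Slc1a3 and Lcn2. For comparison, the 9833 genes above 0.1 in cluster 2 of either library had a median of 0.01, with 5% below -0.13 and 5% above 0.13, so Vim lay below this range and Slc1a2 and Aldh1l1 above it. This scale understates the folds of low genes such as Aldh1l1 and Gfap. Of these genes 53.0% were higher with NDST3, as were 4 (Gja1, Slc1a2, Aldh1l1 and Gfap) of the 7 members above 0.1 there. Gfap and Aldh1l1 were thus higher with NDST3 in cluster 2 and lower with NDST3 in bulk RNA, on values with no replicate in the first and no call in the second. Of the 32 wider function genes, 31 were above 0.1 in cluster 2 and 25 were highest there, against 24 and 7 of the 38 wider reactivity genes. The function list holds S100b and Ndrg2, which the study used to name cluster 2. Among 26646 genes, 34.7% were above 0.1 in cluster 2. Of the 11758 genes above 0.1 in some cluster, 31.3% were highest there. The counts of 25 and 7 are over all genes of their lists, without this filter.

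The genes most like each of the 10 over the 18 cluster means were sought among 11758 genes, as a description of 9 clusters that share 2 libraries. For Gfap they were Gpt2 (Pearson r 0.981), Aldh1l1 (0.979), Pcbd1 and Spock3 (both 0.977) and Tspan8 (0.976). For Aqp4 the first were Cfap97d2, 1700028P14Rik and Foxj1 (1.0 each after rounding), the last of which is in the ependymal list, and Clic6 of the choroid plexus list was among the first 5 for Slc1a2 (0.999). Those most like Osmr were Gjc1 (0.998) and Msrb3 (0.996), and most like Lcn2 Sh2d3c (0.975) and Il15 (0.972). Vim had the least close partner, Plec (0.957).

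**Figure D4:**
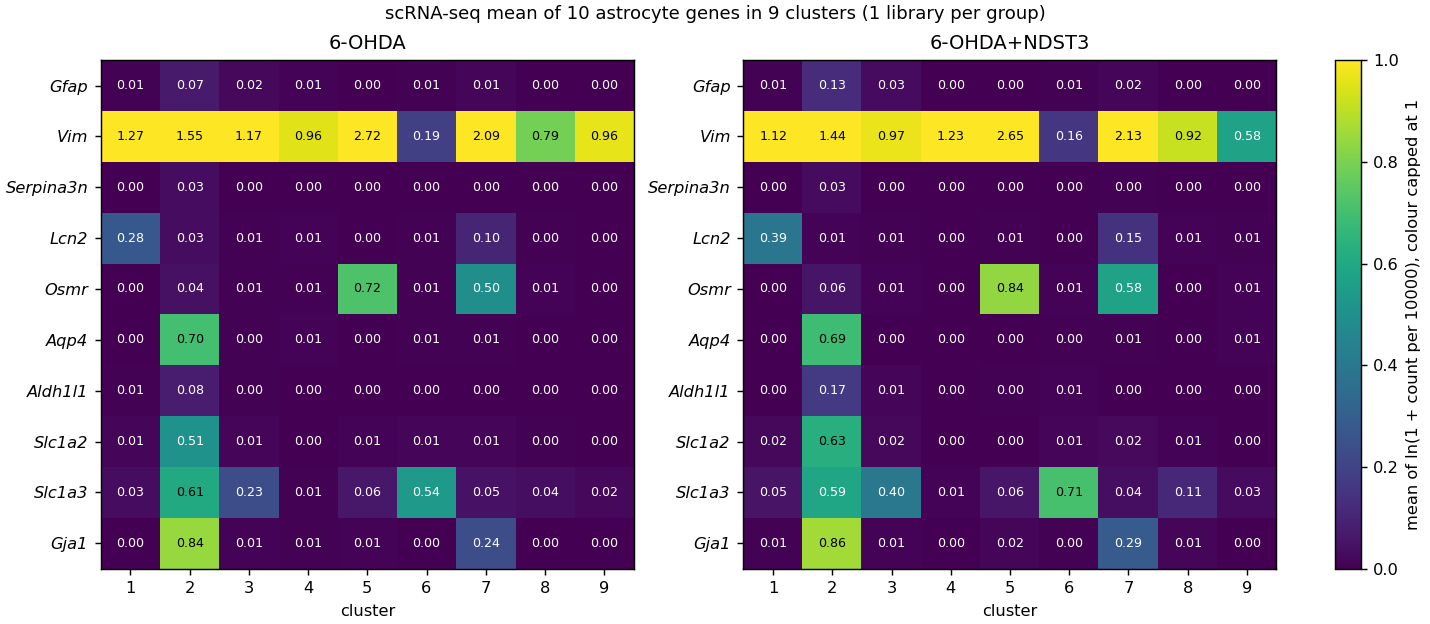
Deposited scRNA-seq mean (colour and number, ln(1 + count per 10000), colour capped at 1) of the 10 genes (rows) in 9 clusters (columns), for the 6-OHDA library and the NDST3 library. Aqp4, Slc1a2 and Gja1 are highest in cluster 2, with Gja1 also at 0.24 and 0.29 in cluster 7. Osmr and Vim are highest in cluster 5 and Lcn2 in cluster 1.

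H3K27ac is a histone mark of active promoters and enhancers, and its CUT&RUN signal was deposited as 1 value per region and group, pooled over 2 libraries, so no test could be made. All 11424 listed regions had at least as much signal with NDST3 as in the 6-OHDA library (0 were lower), so that direction is a property of the list. Both Serpina3n regions were among the strongest of the table. The one 134 bases before the start had a signal of 61.3 in sham, 80.1 after the lesion and 80.9 with NDST3, in the top 1% of regions in each group (99.72, 99.91 and 99.57 percentile). The one 90 bases after the start had 48.3, 59.7 and 63.5. The ratios of lesion to sham, 1.3 and 1.23 with a pseudocount of 1, were below 1.5-fold, and NDST3 was 1.01 and 1.06 times the 6-OHDA value.

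At Vim the ratios of lesion to sham were on opposite sides of 1. The one 752 bases before the start had 18.6 in sham, 11.5 after the lesion and 22.9 with NDST3, and the one 193 bases before it had 9.12, 15.7 and 17.2. Lesion to sham was 0.636 at the first and 1.65 at the second, so 1 region was past 1.5-fold in each direction, as were 12.9% lower and 22.2% higher of the 11326 regions compared. NDST3 to 6-OHDA was 1.92 and 1.09, and 32.3% of all regions were past 1.5-fold upward there. NDST3 to sham was 1.22 and 1.8, with 46.8% of all regions past 1.5-fold upward and 2.88% downward. The other 8 genes were not listed in this table.

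ATAC-seq measures how open chromatin is, and each value comes from 1 library. At Aqp4, the region 106 bases before the start had 26.8 in sham, 28.8 in the 6-OHDA library and 27.2 with NDST3, and the region 436 bases before it had 17.5, 26.3 and 17.2. The second was 0.666 times the 6-OHDA value with NDST3, and 9.39% of the 3537 regions compared were past 1.5-fold downward. At Slc1a2, the region 76 bases after the start had 10.1, 15.8 and 27.8, so that the lesion was 1.504 times sham (17.1% of regions past 1.5-fold upward, though this region was not when centred on the median region) and NDST3 was 1.72 times the 6-OHDA value (14.3%) and 2.59 times sham (25.5%). At Vim, the region 698 bases before the start had 6.13, 4.0 and 8.57, and that 306 bases before it had 14.8, 10.5 and 9.5. With NDST3 the first was 1.91 times the 6-OHDA value, and the second was 0.665 times sham, as 12.8% of regions were past 1.5-fold downward. For Vim and Slc1a2, lesion to sham in ATAC-seq had the opposite direction from RNA, with lower signal and higher RNA at Vim and higher signal and lower RNA at Slc1a2. At Vim these ATAC ratios were 0.701 and 0.728, neither past 1.5-fold, while its H3K27ac ratios of 0.636 and 1.65 went both ways. The RNA difference of Slc1a2 was not called. How common such opposite directions are among all genes was not tested.

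**Figure D5:**
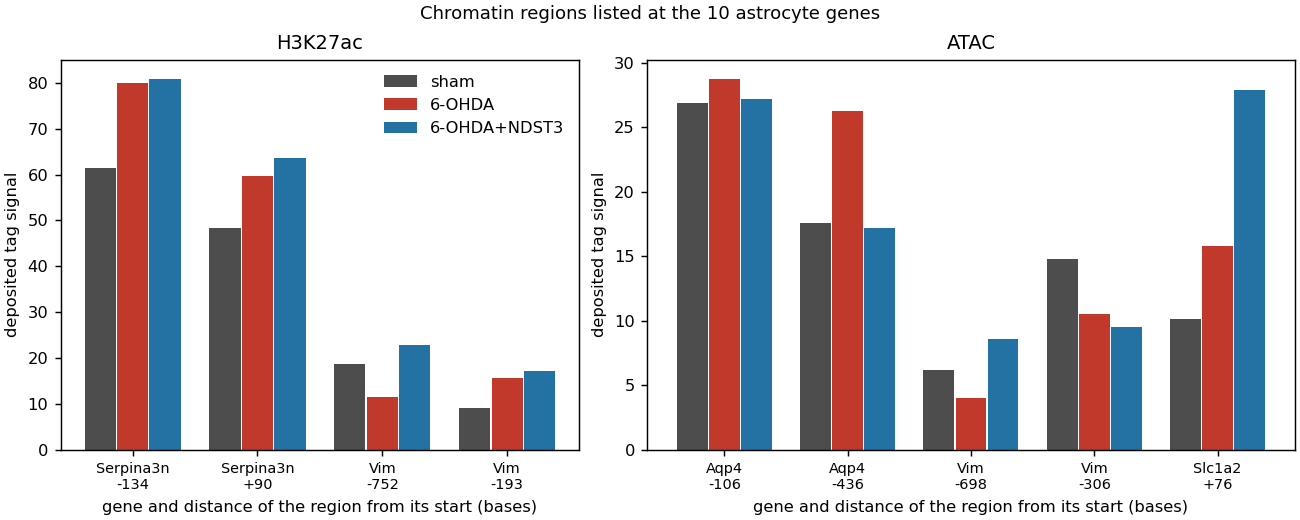
Deposited tag signal (y axis, from 0) of the 4 H3K27ac and 5 ATAC-seq regions listed at the 10 genes, labelled with gene and distance from the start in bases; each bar is 1 value per group, without replicate error. The Serpina3n regions reach 80.9, and the Slc1a2 region goes from 10.1 in sham to 27.8 with NDST3.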

How the data were processed

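For RNA-seq, the authors used Trimmomatic for trimming, HISAT2 for alignment (mm10) and StringTie for quantification, and deposited read counts, FPKM and TPM per gene. The scRNA-seq means deposited by the authors are headed as mean counts, but have the range of natural log values, ln(1 + count per 10000). CUT&RUN and ATAC-seq signal was deposited by the authors per region and group, with a scaling that is not given in the sources used here. Region positions lay within 1100 bases of the mm10 start of the named gene in 3.58% (H3K27ac) and 10.4% (ATAC) of matched regions, so they are on another build than the labelled mm10, and no sequence was read by them. Distances from the start are those of the tables.

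Counts were analysed in edgeR 4.0.16 (R 4.3.3) with TMM factors, filterByExpr (19300 of 20328 genes kept) and the quasi-likelihood test over all 5 libraries, which left 2 residual degrees of freedom; the biological coefficient of variation was 20.3%. P-values were adjusted with Benjamini-Hochberg over all kept genes and called under 0.05, and the fit was tested on simulated data. Of 200 genes changed in the simulated 6-OHDA library, 51.5% were called against sham, with 2 false calls. A gene without a call may therefore still differ. The simulation changed 200 of 19140 genes, while 6916 were called in the data. It also drew the 6-OHDA library with the same spread as the others, so these figures may not carry over to the data. Alternatives were DESeq2 1.42.0, limma 3.58.1 (log2 of FPKM with 1 or 0.1 added), other scalings, filters and sample sets, and a replicate block. Sham and the NDST3-treated PD model share replicate numbers, but nothing says that a number marks a shared animal or batch. Signal ratios used a pseudocount of 1, and regions under 1 in all groups or lacking a value in any group (45 in ATAC) were left out. Genes were counted as detected in scRNA-seq above 0.1. Calculations outside R used Python 3.11.15, pandas 2.3.3 and numpy 2.4.6.

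The 10 genes, the wider lists and the cell type markers were chosen with earlier results of these data known. From each list the text names up to 4 genes of largest change per direction among those called with a mean of at least 1 CPM. Clcf1, with a lower mean of 0.618 CPM, was added after its value was seen. Values of 2 genes of the wider lists are not reported here.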

Additional observations from a re-analysis of the deposited data

How the results depend on the processing

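With single libraries left out, the count of the 10 genes called in 6-OHDA against sham ran from 0 (without either sham library) to 9, and that of the 105 wider genes from 0 to 74, against 8 and 69. In NDST3 against 6-OHDA the wider count ran from 0 (without either sham library or without NDST3 replicate 1) to 33, against 24, and in NDST3 against sham from 0 to 2, against 0. The replicate block, which takes libraries with the same number as a pair, gave 3 of the 10 and 27 wider genes in 6-OHDA against sham (1796 of all genes, against 6916). It gave 0 wider genes, and 0 of all genes, in NDST3 against 6-OHDA. Deviations of same-numbered libraries had a correlation of -0.432 over 19300 genes, so the numbers were not taken as pairs; the crossed pairing, chosen after seeing the data, gave 9, 6 and 7 of the 10 in the 3 comparisons (7444, 4795 and 1194 of all genes), and 55 and 28 wider genes in the last 2. DESeq2 called 5 of the 10 and 48 wider genes in NDST3 against 6-OHDA (5194 of all genes), and 5 and 19 in NDST3 against sham (1023 of all genes). The study's threshold gave 4 of the 10 in NDST3 against 6-OHDA (3024 of all genes) and 6 with 22 wider genes in NDST3 against sham (1131 of all genes). For NDST3 against 6-OHDA, the wider count was 14 with limma on log2(FPKM + 0.1), with 2509 of all genes. With only the 2 groups compared it was 0, as over the whole table. Single genes kept their direction under all alternatives in 6-OHDA against sham and in NDST3 against 6-OHDA. The cause of these differences was not tested, other than that fewer libraries left fewer degrees of freedom.

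Of the member regions past 1.5-fold, none was past 2-fold in H3K27ac in any comparison or in ATAC for 6-OHDA against sham and NDST3 against 6-OHDA, while 1 was in ATAC for NDST3 against sham. With a pseudocount of 5 the counts for 6-OHDA against sham were 0 in H3K27ac (main 2) and 0 in ATAC (main 1), and 1 in ATAC for NDST3 against sham (main 2); with 0.1, ATAC gave 2 for 6-OHDA against sham. Centred on the median region, H3K27ac gave 0 for both comparisons with NDST3 (main 1 each), and ATAC for 6-OHDA against sham gave 0 higher and 1 lower (main 1 higher and 0 lower). Of all 10 genes, 6 were highest in cluster 2, and 6 or 7 under its alternatives, but Gfap, Aldh1l1 and Slc1a2 among them had served to name it. The bulk results are limited by the 1 library of the 6-OHDA-induced PD model, and the part of sequencing depth was not tested. No error can be given for chromatin or scRNA-seq.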
